A study of Mus musculus with 31 samples.

Results

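The data described here are the liver mRNA signals of 8 mouse genes that build fatty acid elongation, Elovl1, Elovl2, Elovl3, Elovl5, Elovl6, Elovl7, Hsd17b12 and Tecr. All probes whose gene name on the array is one of these symbols were taken. Of 13 such probes, 12 are among the 36057 probes of the deposited table, and every one of the 8 genes has at least 1. The genes in the table number 23968. Livers came from 31 male C57BL6/J mice, 1 one-color Agilent array per mouse, all killed after 24 hours of fasting and 18 hours of refeeding with food and water containing 20% glucose. Total ChREBP-KO mice (n = 7) are Mlxipl-null and lack the α and β isoforms of ChREBP, and ChREBPβ-deficient mice (n = 8) lack only the β isoform, since the exon specific to it was deleted by CRISPR/Cas9. Each genotype has its own WT littermates (n = 8 in each line). Both deletions are germline and therefore present in every tissue, ChREBPβ-deficient mice were derived from more than 1 edited line, and the age of the mice is not given in the sources used here.

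Fatty acid synthase releases palmitate, and longer chains are made on the endoplasmic reticulum by a cycle of reactions that adds a pair of carbons at each turn. The Elovl proteins catalyze the first and rate-limiting condensation and each prefers certain chains. ELOVL6 extends palmitate to stearate, ELOVL5 and ELOVL2 extend polyunsaturated chains, and ELOVL1, ELOVL3 and ELOVL7 act mainly on saturated and monounsaturated chains. The later steps are shared by all chains: HSD17B12 reduces the ketone, HACD proteins remove water, and TECR reduces the remaining double bond. ChREBP, the product of Mlxipl, is a glucose-responsive transcription factor that binds E box pairs in glycolytic and lipogenic genes of the liver. The comparison asks which elongases depend on ChREBP at all and which on its β isoform.

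Values are log2 of the normalized signal of a probe, so a difference of 1 is a doubling, and levels of different probes cannot be set against each other. Differences were tested with limma over all 36059 probes kept, and a probe is called when its Benjamini-Hochberg adjusted p is below 0.05. Between 34131 and 38612 spots per array passed the authors' quality weights, and arrays correlated at 0.980 to 0.999. There were 15 slides, and 13 of them carried arrays of several groups. All groups were spread over the 2 scan days. The brightest Mlxipl probe read 14.12 ± 0.13 (SD, n = 7) in total ChREBP-KO and 15.28 ± 0.12 (n = 8) in WT livers, a difference of -1.16 (SE 0.07, adjusted p = 8.05e-13, limma). In ChREBPβ-deficient livers the same probe was lower than in WT littermates by a difference of -0.45 (SE 0.07, adjusted p = 0.0152). That call was lost without ChREBPβ-deficient replicate 5 or 6 or WT replicate 6 or 7 of this line, where the difference was -0.44 to -0.42, and every deficient liver read below every WT littermate. Of the other 2 Mlxipl probes, 1 was lower in total ChREBP-KO (-0.59, adjusted p = 0.00313) and not called in ChREBPβ-deficient livers (-0.46, adjusted p = 0.909), and the other was called in neither (-0.05 and -0.06). The sources used here do not say which exons the null allele lacks, so these probes check the amount of transcript and not its product. As a check of the tissue, all 13 hepatocyte markers were well above background on all 31 arrays, and 2 of them were lower and 4 higher in total ChREBP-KO livers. The shares over all probes were 14.6% lower and 14.5% higher. In whole liver, fewer cells of a type and less RNA per cell cannot be told apart.

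In total ChREBP-KO livers 7 of the 12 elongation probes were lower, 1 was higher and 4 were not called. The 7 include the third Elovl5 probe, which was well above background on 21 arrays and in 0 of 7 knockouts. It was kept by the rule of 6 arrays of 1 group, and its knockout signal gives only a bound. Among all probes 14.6% were lower and 14.5% were higher, and the median difference was 0.0083 over all probes against -0.54 over the elongation probes. By gene, Elovl6, Elovl5, Elovl3, Hsd17b12 and Tecr had a probe that was lower, Elovl7 was higher, and Elovl1 and Elovl2 were not called. In 3 probes, for Elovl6, Elovl5 and Hsd17b12, every knockout lay below every WT littermate, which was so for 4.14% of all probes.

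**Figure D1:**
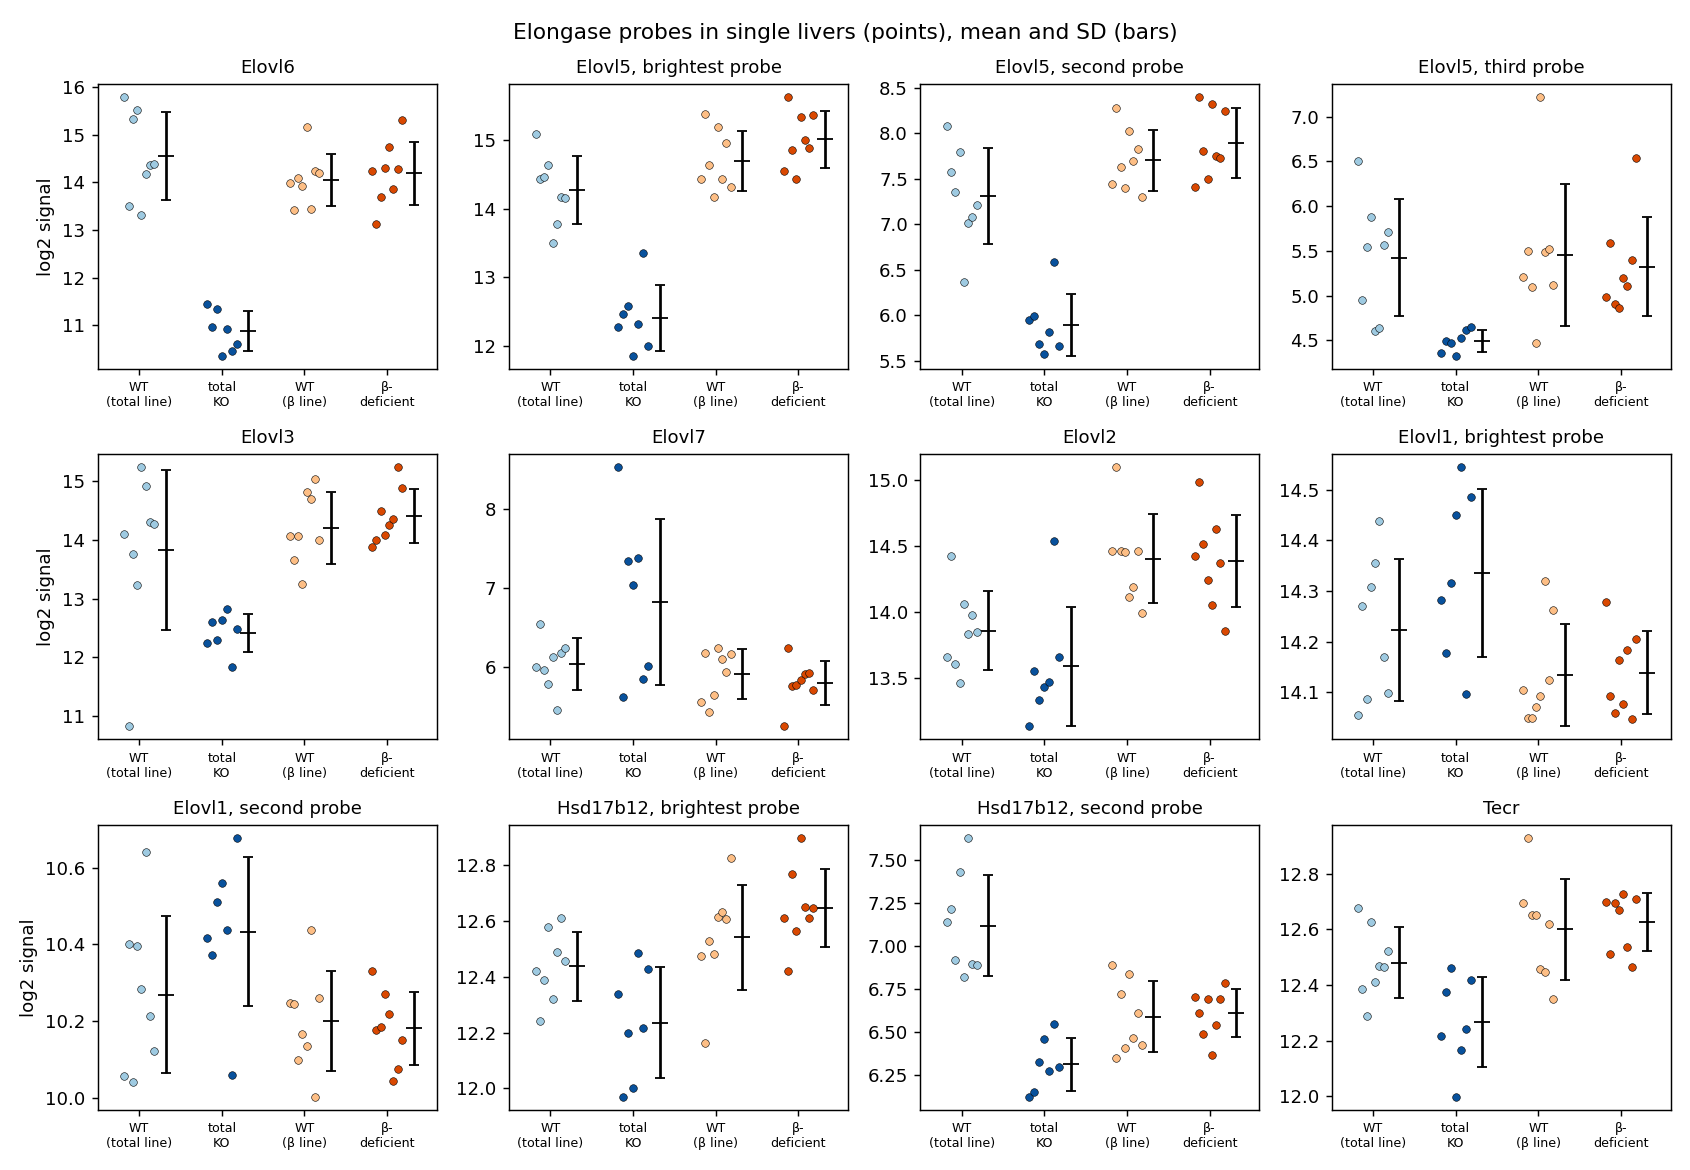
Each panel is 1 probe and each point 1 liver, with the log2 signal on the y axis and the mean and SD as bars beside each group. The Elovl6 panel shows all 7 total ChREBP-KO livers at or below 11.44 and all other livers at or above 13.12, while the 2 groups of the ChREBPβ line overlap in every panel.

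Elovl6, which turns palmitate into stearate, had the largest difference of the elongation probes. Its only probe, read from the array annotation at chr3:129337756-129337815 (mm9, plus strand), starts with the bases below, shown because the main result rests on this single 60-base probe.
Elovl6 probe, first 30 bases: atttgaccaaatcagaagagagagagaacc
Total ChREBP-KO livers ranged from 10.36 over a median of 10.93 to 11.44, and WT littermates from 13.32 over 14.38 to 15.80. The groups were separated by a gap wider than the whole range of the knockouts. The difference was -3.68 (SE 0.33, 95% interval -4.35 to -3.01, adjusted p = 5.84e-10, limma), so that the knockout mean was 7.80% of the WT mean. It was -4.02 among the arrays of 1 scan day and -3.40 among those of the other, and -4.08 to -3.15 on the 4 slides that held both genotypes.

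Elovl5, the elongase of polyunsaturated chains, is read by 3 probes, all of which were called as lower, the third with a bound only. They are printed because they lie in different parts of the locus. The second is given in full since its 60 bases cross a splice junction, from chr9:77827724-77827983.
Elovl5 brightest probe, first 30 bases: ctcaatacaaaaattataacatttgatagt
Elovl5 second probe: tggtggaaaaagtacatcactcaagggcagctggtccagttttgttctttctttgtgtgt
The third Elovl5 probe, first 30 bases: tttcacagtggttgatggtggtacgatttc
At the brightest probe (chr9:77832205-77832264) total ChREBP-KO livers read 11.86 to 13.35 with a median of 12.33, and WT littermates 13.50 to 15.09 with a median of 14.30. No knockout reached the lowest WT liver. The difference was -1.87 (SE 0.22, 95% interval -2.33 to -1.41, adjusted p = 1.60e-07, limma), or 27.4% of WT, and it was -2.36 on 1 scan day and -1.34 on the other. The second probe was lower by a difference of -1.42 (SE 0.20, adjusted p = 2.20e-06), with knockouts at 5.57 to 6.58 and WT at 6.36 to 8.08. The third probe (chr9:77805265-77805324), assigned to another transcript of the gene, was well above background in 0 of 7 knockouts and in 6 of 8 WT livers. Its signal there gives only a bound, at least 1.74-fold lower in the knockouts (adjusted p = 0.0153). The bound sets the WT mean of 5.43 against the lowest signal well above background on each knockout array, since the measured knockout mean, 4.49, is no level, and it holds for the values as normalized here. Over the alternatives tried the difference of this probe ran from -2.65 to -0.45. The probe was well above background on 21 arrays, fewer than the 26 of the filter. It was therefore kept only through groups with at least 6 such arrays, and the part of this selection in its call was not tested.

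Elovl3, an elongase of saturated and monounsaturated chains that also varies with sex and time of day in mouse liver, was lower in total ChREBP-KO livers with a wide WT spread. Knockouts ranged from 11.83 over a median of 12.48 to 12.83. WT littermates ranged from 10.83 over 14.18 to 15.24, and the lowest of them, replicate 2, lay below all knockouts while the next lowest read 13.23. The difference was -1.41 (SE 0.40, adjusted p = 0.0071, limma), or 37.6% of WT, and without that liver it was -1.84 (adjusted p = 4.73e-06). The call was lost with slide as a fixed block, where the adjusted p was 0.0684, and with the exact Mann-Whitney test, where it was 0.0558. It was -0.53 on 1 scan day, which held this liver, and -2.30 on the other. In WT replicate 2 the male-biased genes Hsd3b5 and Slco1a1 read 12.89 and 11.35, below the other 7 WT livers at 14.01 to 14.93 and 12.64 to 12.96. They are 2 of 13 male-biased genes measured, and the others are not given by liver. The summed level of the 13, which weighs the brightest most, ran from 19.3 to 19.6 over the WT livers. The part of sex-biased expression in the Elovl3 value was not tested.

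Elovl7, an elongase of saturated and monounsaturated chains, was the only member that was higher. Total ChREBP-KO livers ranged from 5.62 over a median of 7.04 to 8.52, and WT littermates from 5.46 over 6.06 to 6.55. Replicates 1, 4, 5 and 6 of the knockouts, at 8.52, 7.34, 7.04 and 7.37, lay above all WT livers, and replicates 2, 7 and 8, at 5.62, 5.84 and 6.01, lay within the WT range. The difference was 0.78 (SE 0.28, adjusted p = 0.0311, limma), or 1.72-fold, and 1.06 on 1 scan day against 0.41 on the other. The call was lost without total ChREBP-KO replicate 1 (0.50, adjusted p = 0.107), without any of the other 3 high knockouts, without WT replicate 4 or 6, with slide as a fixed block (0.66 with an adjusted p of 0.160) and with the exact Mann-Whitney test (adjusted p = 0.411).

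Epcam, an adhesion protein of bile duct cells, read 6.56, 6.48, 8.79 and 6.22 in replicates 1, 4, 5 and 6, and 5.49, 5.53 and 5.69 in replicates 2, 7 and 8, against 5.25 to 5.84 in WT. It stood high in the same 4 knockouts as Elovl7. Krt19, a keratin of these cells, read 8.55, 8.14, 11.03 and 8.06 in the same 4 and 7.40, 7.21 and 7.82 in the others, against 7.34 to 9.01 in WT, and was not called (0.49, adjusted p = 0.317, limma). Of the 6 cholangiocyte markers measured, Epcam alone was called, at a difference of 0.97, where 14.5% of all probes were higher. The markers other than Epcam and Krt19 are not given by liver. The summed level of the 6 was 11.7 to 13.6 in knockouts, 11.5 to 12.5 in WT, 11.6 to 12.6 in ChREBPβ-deficient and 11.8 to 12.6 in their WT livers. The part of these cells in the Elovl7 value was not tested. The highest Epcam value was in replicate 5 and the highest Elovl7 value in replicate 1.

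Elovl2, which extends polyunsaturated chains, and Elovl1, which makes saturated and monounsaturated chains for sphingolipids, were not called. For Elovl2 the knockouts read 13.13 to 14.53 with a median of 13.47 and WT 13.46 to 14.42 with a median of 13.84. The difference was -0.27 (95% interval -0.63 to 0.09, adjusted p = 0.271, limma), and without total ChREBP-KO replicate 7, the highest knockout, it was -0.43 (adjusted p = 0.0404). For the brightest Elovl1 probe the knockouts read 14.10 to 14.54 and WT 14.06 to 14.44, and the difference was 0.11 (95% interval -0.02 to 0.25, adjusted p = 0.213). The second Elovl1 probe differed by 0.16 (SE 0.08, adjusted p = 0.140) and was called as higher without total ChREBP-KO replicate 7 (0.23, adjusted p = 0.0277) or WT replicate 6 (0.22, adjusted p = 0.0340). Both intervals of the brightest probes leave out changes as large as those of Elovl6 and Elovl5. The remaining Elovl1 probe on the array was well above background on 0 arrays, and the Elovl4 probe, for the paralog that makes the very long chains of retina and skin, on 1 array. Neither was tested.

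Tecr and Hsd17b12 act on all chains. Tecr, the last reductase of the cycle, read 12.00 to 12.46 in total ChREBP-KO and 12.29 to 12.68 in WT livers, groups that overlap. Its difference was -0.21 (SE 0.08, adjusted p = 0.0326, limma), or 86.3% of WT, with -0.23 and -0.19 on the scan days. The call was lost with slide as a fixed block (adjusted p = 0.0797), with the exact Mann-Whitney test (adjusted p = 0.0558), and without any 1 of total ChREBP-KO replicates 1, 5 and 6 or WT replicates 1, 4 and 8, where it reached an adjusted p of 0.0970. Hsd17b12, the ketone reductase, has 2 probes that differ in result and are shown for that reason.
Hsd17b12 brightest probe, first 30 bases: aaataatcatgggtttcagcaagtctttgc
Hsd17b12 second probe, first 30 bases: cattcctttgatgttaagtaaatgctgaaa
The brightest (chr2:93873719-93873778, minus strand) read 11.97 to 12.49 in knockouts and 12.24 to 12.61 in WT, a difference of -0.20 (SE 0.08, adjusted p = 0.0683), and it was called when the processed signal was scaled to the 75th percentile (-0.23, adjusted p = 0.0288), when the median signal was so scaled (-0.24, adjusted p = 0.0356) and with a replicate block (adjusted p = 0.0303). The second (chr2:93955017-93955076), assigned by the array to a different transcript, read 6.13 to 6.55 in knockouts and 6.82 to 7.63 in WT, with no overlap, and differed by -0.81 (SE 0.10, adjusted p = 5.86e-07), or 57.2% of WT, with -0.91 and -0.69 on the scan days. The 2 probes were not tested against each other.

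In ChREBPβ-deficient livers no elongation probe was called. The 12 differences ran from -0.13 to 0.32, 4 negative and 8 positive, with all adjusted p at or above 0.9998 (limma) and 0 of 12 with an unadjusted p below 0.05. Over all probes the call rate was 0.00277%, a single probe, which is Mlxipl itself, and 4.98% of probes had an unadjusted p below 0.05. With the exact Mann-Whitney test 0 probes were called after adjustment and 2241 had an unadjusted p below 0.05. The 2 groups overlapped for every elongation probe, and 0.0222% of all probes had groups that did not.

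The intervals show what these 16 livers can and cannot separate. Elovl6 read 13.12 to 15.32 with a median of 14.26 in ChREBPβ-deficient and 13.43 to 15.17 with a median of 14.03 in WT livers, a difference of 0.13 (SE 0.32, 95% interval -0.51 to 0.78). The lower end of that interval corresponds to 0.701-fold of WT. Elovl5, at its brightest probe, read 14.43 to 15.63 against 14.17 to 15.38, a difference of 0.32 (95% interval -0.12 to 0.76, unadjusted p = 0.152, limma). Each of the 4 slides that held both genotypes of this line carried 1 liver of each. The brightest Elovl5 probe differed there by 0.44 to 0.90, positive each time, and the second by 0.30 to 0.63. The third Elovl5 probe ran from -1.63 to 0.44 and Elovl6 from -2.04 to 1.30, both negative on 3 of these slides. By scan day the brightest Elovl5 probe differed by 0.13 and 0.49. Elovl3 read 13.89 to 15.24 against 13.25 to 15.04, a difference of 0.20 (95% interval -0.58 to 0.98). Elovl2 and both Elovl1 probes differed by -0.02, 0.00 and -0.02, Elovl7 by -0.11, Tecr by 0.03, and Hsd17b12 by 0.11 and 0.02.

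**Figure D2:**
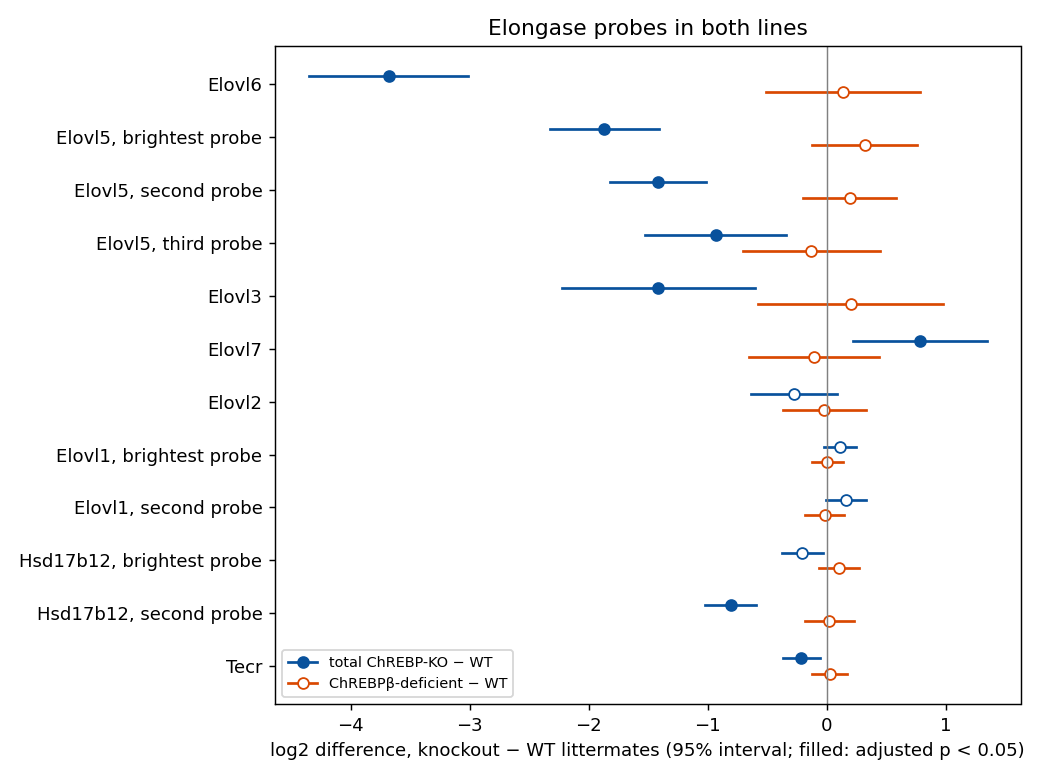
The x axis is the log2 difference between knockout and WT littermates for each probe, with its 95% interval, in the total ChREBP-KO line (blue) and the ChREBPβ line (orange). Filled points have an adjusted p below 0.05: 8 probes of the total line, from -3.68 for Elovl6 to 0.78 for Elovl7, and none of the ChREBPβ line. The third Elovl5 probe is among the 8, and its knockout signal gives only a bound.

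The difference between the effects of the 2 deletions was tested directly as an interaction. It was called for 5 elongation probes, all lower in the total ChREBP-KO line, where 8.08% of all probes were lower and 7.02% higher. The difference of the effects was -3.82 for Elovl6 (SE 0.46, adjusted p = 6.00e-07, limma). It was -2.19 for Elovl5 at the brightest probe (adjusted p = 8.99e-06) and -1.61 at the second (adjusted p = 1.20e-04). For the second Hsd17b12 probe it was -0.83 (SE 0.15, adjusted p = 1.59e-04). For Elovl3 it was -1.61 (adjusted p = 0.0444), a call that was lost with slide as a fixed block (adjusted p = 0.124), without a filter on dim probes (adjusted p = 0.0623), with a trended and robust variance prior (adjusted p = 0.0571) and in most fits without 1 array, where the adjusted p reached 0.0735. For Elovl7 (0.89, adjusted p = 0.119), Tecr (-0.24, adjusted p = 0.128), Elovl2 (-0.25) and Elovl1 (0.11) the effects were not shown to differ between the lines. For the brightest Hsd17b12 probe it was -0.31 (adjusted p = 0.0719), called with a replicate block (-0.31, adjusted p = 0.0298) and without WT replicate 2 or knockout replicate 6 of the total line or deficient replicate 2 or WT replicate 8 of the ChREBPβ line (-0.35 to -0.34). Tecr was called without WT replicate 2 of the ChREBPβ line (-0.29, adjusted p = 0.0473). The third Elovl5 probe (-0.81, adjusted p = 0.194) was called without WT replicate 5 of the ChREBPβ line (-1.06, adjusted p = 0.0271) and when the processed signal was scaled to the 75th percentile (-2.51, adjusted p = 0.0290), and without total ChREBP-KO replicate 2 Elovl7 was (1.09, adjusted p = 0.0377).

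All 16 mice of the ChREBPβ line, deficient and WT, lay above every total ChREBP-KO liver for Elovl6 (13.12 to 15.32 against at most 11.44), Elovl5 (14.17 to 15.63 against at most 13.35) and Elovl3 (13.25 to 15.24 against at most 12.83). The WT littermates of the lines also differed from each other for some members, and each knockout was compared with its own littermates. WT mice of the total line were lower than those of the ChREBPβ line for Elovl2 (-0.54, SE 0.17, adjusted p = 0.0266, limma) and higher for the second Hsd17b12 probe (0.53, SE 0.10, adjusted p = 4.85e-04). Of all probes 8.92% were lower and 8.12% higher between these WT groups. With slide as a fixed block neither stayed called (Elovl2 adjusted p = 0.182, Hsd17b12 adjusted p = 0.142), and Elovl2 was not called without WT replicate 3 or 4 of the total line or WT replicate 2 of the ChREBPβ line. For the second Hsd17b12 probe, the total ChREBP-KO livers (6.13 to 6.55) overlapped the WT livers of the ChREBPβ line (6.35 to 6.89), while the WT livers of their own line read 6.82 to 7.63.

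Whether paralogs changed by different amounts was tested on differences taken within each array between the brightest probes of a pair of genes. All 28 pairs were compared in each line by a two-sided exact permutation of the mice, with p adjusted over the 56 comparisons, and the smallest p the design allows is 0.000155. In the total ChREBP-KO line 16 of 28 pairs changed unequally, and in the ChREBPβ line 0 of 28. The lowest p in the ChREBPβ line was 0.0353, for Elovl5 against Elovl7 (0.43, adjusted p = 0.103 by the same exact permutation).

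Elovl6 fell by more than each of the other 7 genes. Its fall exceeded that of Elovl5 by 1.81 (SE 0.32, exact permutation, adjusted p = 0.00237) and that of Elovl3 by 2.27 (SE 0.60, adjusted p = 0.0239, exact permutation). The change of Elovl2 minus that of Elovl6 was 3.41 and the change of Elovl1 minus that of Elovl6 was 3.79. The change of Elovl6 was -3.48 against Hsd17b12, -3.47 against Tecr and -4.46 against Elovl7, and each of these 5 gaps had an adjusted p of 0.00174 (exact permutation). Elovl5 fell by 1.60 more than Elovl2, the paralog that shares its polyunsaturated substrates (SE 0.27, adjusted p = 0.00174, exact permutation), and no knockout overlapped a WT liver in this difference. Elovl5 and Elovl3 were 0.46 apart (SE 0.65), which was not separated from no difference (exact permutation p = 0.540, adjusted p = 0.817). Elovl3 was separated from Elovl1, the change of Elovl1 minus that of Elovl3 being 1.53 (adjusted p = 0.0479, exact permutation). It was also separated from Elovl7, the change of Elovl3 minus that of Elovl7 being -2.20 (adjusted p = 0.0416, exact permutation). The change of Elovl2 minus that of Elovl3 was 1.14, which was not separated from no difference (adjusted p = 0.221, exact permutation). Nor was Elovl3 separated from Hsd17b12 (adjusted p = 0.103) or Tecr (adjusted p = 0.116, both by exact permutation). Hsd17b12 and Tecr changed by 0.01 (SE 0.10) relative to each other. Leaving out 1 liver at a time gave 11 to 19 unequal pairs in the total line and 0 to 1 in the ChREBPβ line.

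**Figure D3:**
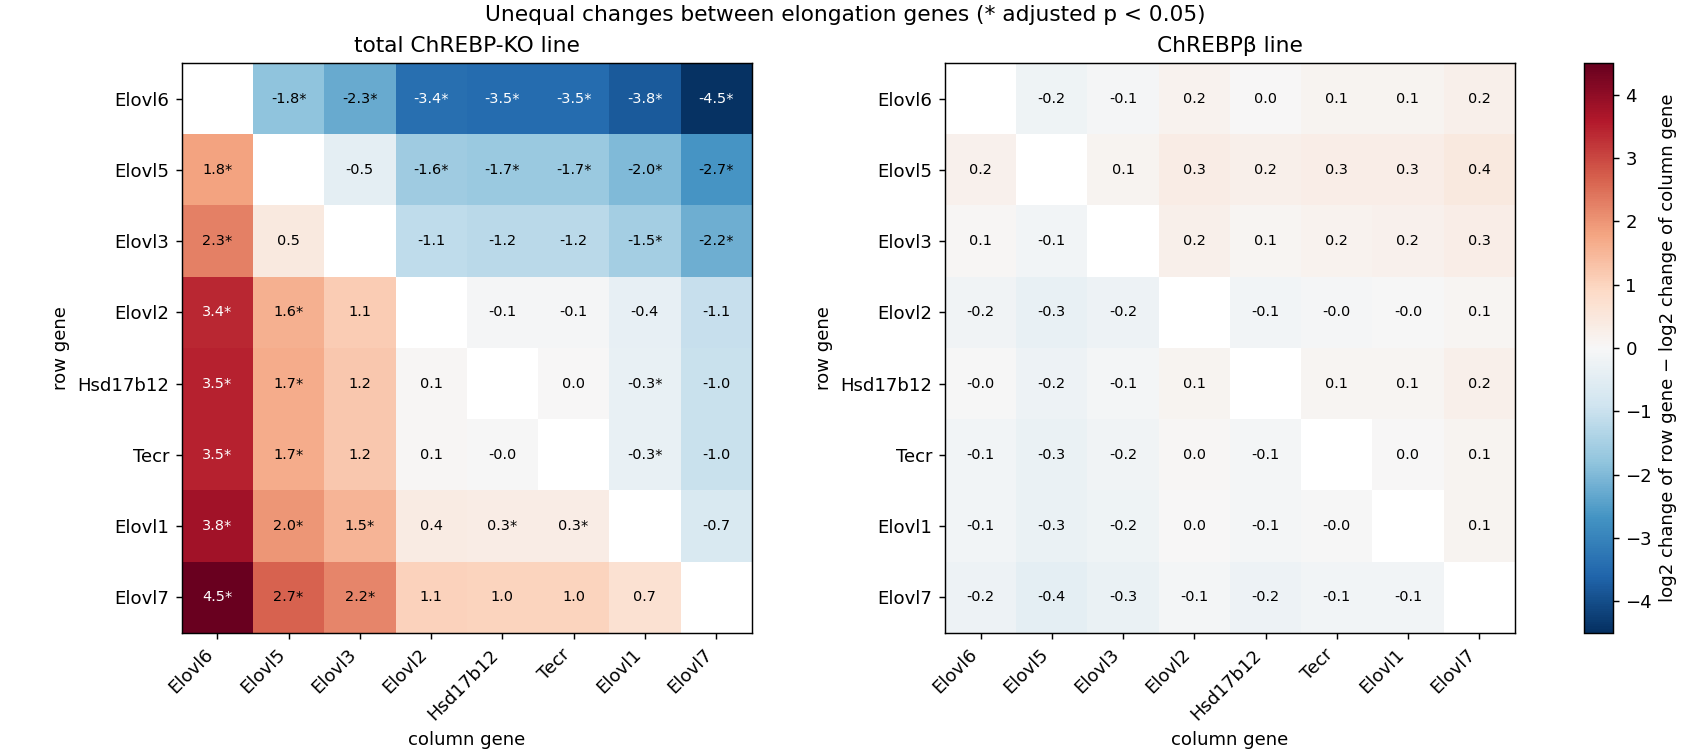
Each cell is the log2 change of the row gene minus that of the column gene, knockout against WT, in the total ChREBP-KO line (left) and the ChREBPβ line (right), with an asterisk at an adjusted p below 0.05. In the left panel every cell of the Elovl6 row has an asterisk, down to -4.46 against Elovl7, and in the right panel no cell has one.

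Several clock and sex-biased genes differed between total ChREBP-KO and WT livers, and their part in the elongase values was not tested. Of 18 circadian clock genes measured, 5 were lower and 6 higher in total ChREBP-KO livers, among them Bhlhe40 (-2.08), Arntl (-1.38), Per1 (1.50) and Nr1d1 (1.21). Dbp, a clock output factor, read 12.23 to 14.04 in total ChREBP-KO and 9.05 to 10.95 in WT livers. In the ChREBPβ line Dbp ran from 8.22 to 15.26. Of 6 female-biased liver genes, 4 were higher and 1 lower, with Cyp2b9 at 3.62 and Cyp2a4 at 1.86, and of 13 male-biased genes 5 were higher and 0 lower. Of 11 adipocyte markers 2 were higher, Adrb3 (1.52) and Car3 (0.79), 9 were not called, and the median difference was -0.07. Their summed level, which weighs the brightest markers most, was 17.3 to 17.7 in knockouts and 16.3 to 17.1 in WT. Of 5 exocrine pancreas markers 2 were lower, Cela3b and Ctrb1, and 3 were not called. Over all probes 14.6% were lower and 14.5% higher.

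Elovl6 and Elovl5 were the members that fell most, so the 250 bases before their start sites are shown, from RefSeq on GRCm38.p6, with motif letters in capitals. Both strands were searched for 4 motifs. The E box, which ChREBP and related factors bind, is spelled CACGTG. The motif of NF-Y is spelled CCAAT and reads as its reverse complement where it lies on the other strand. The GC box of the Sp1 family is spelled GGGCGG. The sterol element of SREBP factors is spelled TCACNCCAC. None of these motifs contains another. Elovl5 lies at chr9:77917115-77917364 and Elovl6 at chr3:129532136-129532385, both on the plus strand.
Elovl5 promoter: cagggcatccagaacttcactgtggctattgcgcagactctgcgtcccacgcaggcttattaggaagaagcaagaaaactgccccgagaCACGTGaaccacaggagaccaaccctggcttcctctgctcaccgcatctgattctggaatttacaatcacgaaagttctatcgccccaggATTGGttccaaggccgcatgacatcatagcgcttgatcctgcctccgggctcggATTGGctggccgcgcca
Elovl6 promoter: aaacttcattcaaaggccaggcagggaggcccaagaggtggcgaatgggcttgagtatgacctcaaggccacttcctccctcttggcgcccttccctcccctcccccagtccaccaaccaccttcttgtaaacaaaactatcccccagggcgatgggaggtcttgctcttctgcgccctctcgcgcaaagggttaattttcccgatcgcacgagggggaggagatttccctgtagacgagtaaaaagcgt
The Elovl5 window holds 1 E box, 161 bases before the start, and 2 CCAAT boxes, and the Elovl6 window holds none of the 4 motifs. Promoters were given for 7 of the 8 members, all but Elovl3, and the E box was found in that of Elovl5 alone. Of all 32851 promoters of this length 6.02% hold the E box, 33.8% the CCAAT box, 32.7% the GC box and 1.05% the sterol element. Hsd17b12 and Tecr hold both a CCAAT box and a GC box, as does the Elovl1 window at chr4:118427843-118428092. A further Elovl1 window, at chr4:118429451-118429700, holds GC boxes and no CCAAT box. Elovl2 also has more than 1 window. The windows are short, and a match or its lack says nothing about binding.

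Genes beside the members were also read, over 64 probes of 46 genes within 150 kilobases of a member probe, of which 11 probes were lower and 8 higher in total ChREBP-KO livers, counts near the 14.6% lower and 14.5% higher of all probes. Gm35986, a long noncoding RNA, starts head to head with Elovl6, and the 2 genes overlap by 3 bases in RefSeq, so the Elovl6 window printed above also lies at the start of Gm35986. Its probe (chr3:129230421-129230480, mm9, minus strand) read 5.39 to 6.89 in total ChREBP-KO and 9.85 to 13.27 in WT livers. The difference was -5.56 (SE 0.40, adjusted p = 1.19e-11, limma), larger in size than that of Elovl6. In the ChREBPβ line Gm35986 read 9.91 to 12.18 in deficient and 10.19 to 11.72 in WT livers (0.18, SE 0.39). The probe of D9Wsu90e (chr9:77794642-77794701, mm9), 10623 bases from the nearest Elovl5 probe, read 5.90 to 7.29 in total ChREBP-KO and 8.18 to 10.45 in WT livers. The difference was -2.90 (SE 0.44, adjusted p = 7.18e-06, limma), and it was -0.05 in the ChREBPβ line. Elovl5 spans 67155 bases in RefSeq, so this probe may lie within the Elovl5 gene. Whether it reads a transcript of Elovl5 was not tested. Of 11 probes around Elovl3, 0 were called. These neighbours were chosen after their values were seen.

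The steps that feed and use the elongases were read from lists of genes. Their counts stand beside 14.6% lower and 14.5% higher among all probes in total ChREBP-KO livers. Of the palmitate supply genes, 8 of 10 were lower in total ChREBP-KO livers, 1 was higher and 1 was not called, with a median difference of -2.39. Fasn, the synthase that makes palmitate, read 13.98 to 15.02 in knockouts and 17.27 to 18.30 in WT (-3.16, SE 0.19, adjusted p = 2.05e-13, limma). Acaca, which makes malonyl-CoA for both synthase and elongases, differed by -2.01 (SE 0.20, adjusted p = 2.96e-09), Acacb by -3.82 and Thrsp, a regulator of lipogenesis, by -4.63. Slc25a10, a mitochondrial dicarboxylate carrier, was higher (0.45). In ChREBPβ-deficient livers 0 of the 10 were called, all 10 differences were positive and their median was 0.22. In the other lists positive differences in this line ran from 0 of 10 Kupffer cell genes to all 14 genes of peroxisomal chain shortening.

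Desaturases, which place double bonds in the chains, were read over 8 genes, of which 3 were lower, 2 higher and 3 not called, with a median of -0.08. The shares over all probes were 14.6% lower and 14.5% higher. The stearoyl-CoA desaturases Scd1 (-3.24, SE 0.36), Scd3 (-3.29) and Scd4 (-0.28) were lower, and Scd1 read 10.75 to 14.53 in knockouts against 15.69 to 17.35 in WT. The polyunsaturated desaturases Fads1 (-0.12, adjusted p = 0.616, limma) and Fads2 (-0.03, adjusted p = 0.916), which alternate with ELOVL5 and ELOVL2, were not called, and Fads3 (0.77) and Fads6 (0.27) were higher. Of 9 further genes listed as partners of the elongation cycle 4 were measured, all of them HACD dehydratases. Hacd1 was higher (0.36, SE 0.08) and the other 3 were not called.

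Genes beyond the cycle were called in both directions, as were all probes, at 14.6% lower and 14.5% higher. The counts of these lists were not tested against those shares. Of 9 genes that activate fatty acids, 2 were lower, with Acsl5 at -0.88 and Acsl3 at -0.52, and 5 were higher, with Acsl1 at 0.63 and Slc27a2 at 0.40. Among 10 measured genes, of 18 listed as users of long chains in lipid synthesis, Lpin1, a phosphatidate phosphatase, was lower (-3.25). Lpcat3 (-0.47), which places polyunsaturated chains in phospholipids, was also lower, and Lpin2 was higher (0.75). Of 14 genes of peroxisomal chain shortening 0 were lower and 6 higher, led by Ehhadh (1.14) and Acaa1b (0.51). Of 18 lipogenic regulators 5 were lower, Mlxipl included, and 3 higher. Srebf1, the factor that drives lipogenesis with insulin, was lower (-0.91, SE 0.14, adjusted p = 5.38e-06, limma), as was Insig2 (-0.95), while Ppara (0.69) and Pparg (0.68) were higher. In the ChREBPβ line none of these genes was called except Mlxipl.

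**Figure D4:**
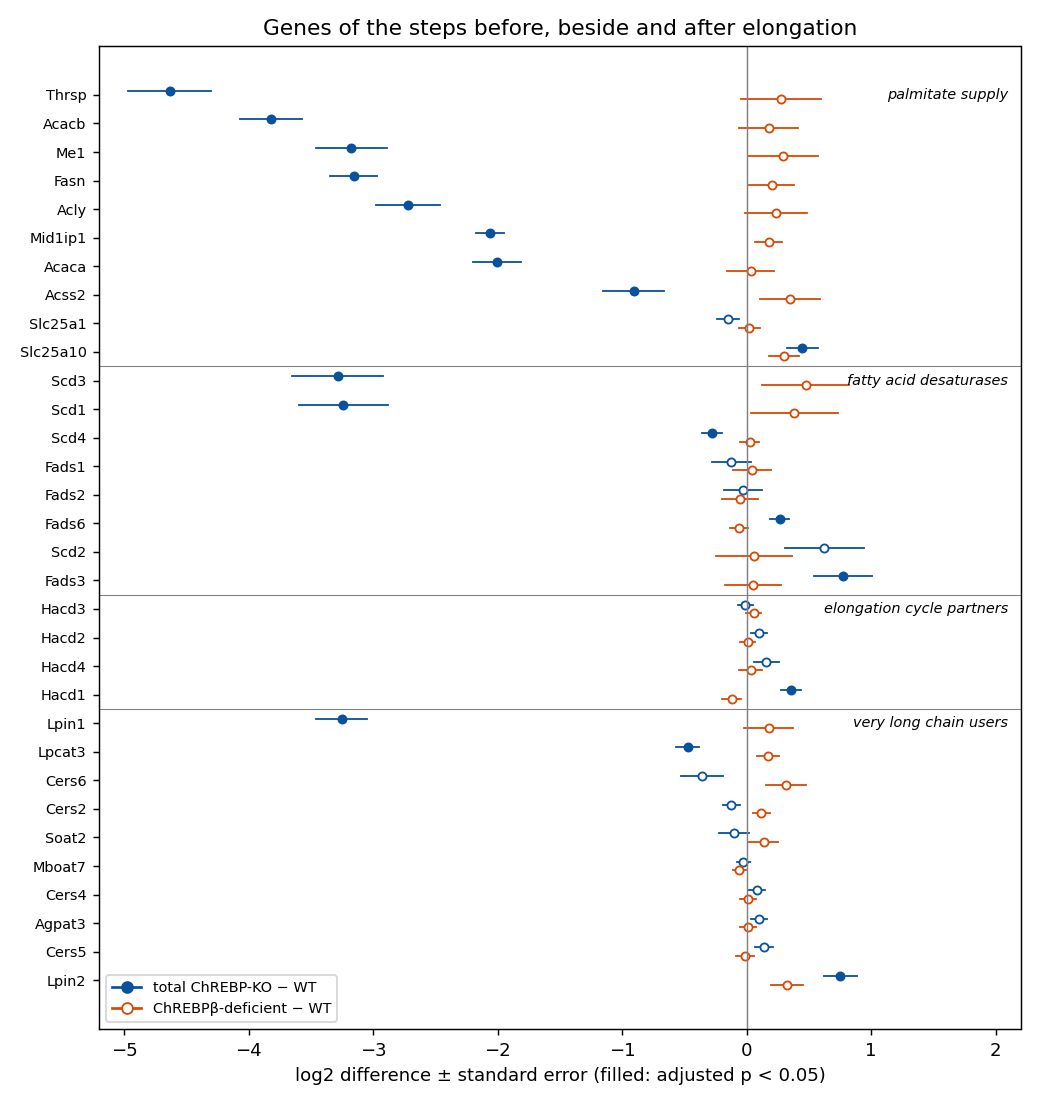
Points are log2 differences between knockout and WT littermates with their standard errors for palmitate supply, desaturases, elongation cycle partners and users of long chains, filled at an adjusted p below 0.05. The total ChREBP-KO points (blue) reach -4.63 at Thrsp and the ChREBPβ points (orange) are all open.

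Livers of 1 group also differed from each other, and this variation was compared after the mean of each group was taken away. Over the 31 mice 55 relations among the members, Fasn, Fads1 and Fads2 were tested by 100000 permutations within groups, and 13 passed after adjustment by r and 7 by rho. Elovl6 followed Fasn (r = 0.90, rho = 0.89, permutation p = 1e-05, the smallest the permutations can give, adjusted p = 1.38e-04). Without the 2 mice farthest in Elovl6 r was 0.89. It was 0.65 in total ChREBP-KO mice, 0.99 in their WT littermates, 0.97 in ChREBPβ-deficient and 0.94 in their WT littermates.

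Elovl2 ran against Elovl6, with r = -0.71, rho = -0.78 and an adjusted p of 1.38e-04 (permutation), and r = -0.78 without the 2 mice farthest in Elovl2. Within the groups r was -0.63, -0.87, -0.98 and -0.53, negative in each. Elovl2 was also lower where Fasn was higher (r = -0.53, rho = -0.61, adjusted p = 0.0244 by permutation), except in total ChREBP-KO mice (r = 0.14). With Fads2, the first desaturase of the polyunsaturated path, a pooled value is not given, since 1 mouse in each group stood apart with high Fads2: total ChREBP-KO replicate 7 (12.76), WT replicate 2 of that line (12.63), ChREBPβ-deficient replicate 2 (13.04) and WT replicate 2 of the ChREBPβ line (12.98). Without the mouse farthest in Fads2 in each group, Elovl2 and Fads2 had r = 0.54. Elovl3 ran against Fads1 (r = -0.61, rho = -0.59, adjusted p = 0.0033 by permutation), weaker at -0.32 without the mouse farthest in Fads1 in each group. Elovl1 ran against Elovl5 (r = -0.58, rho = -0.49, adjusted p = 0.0102 for r and 0.055 for rho by permutation), weaker at -0.40 without the farthest mouse of each group.

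**Figure D5:**
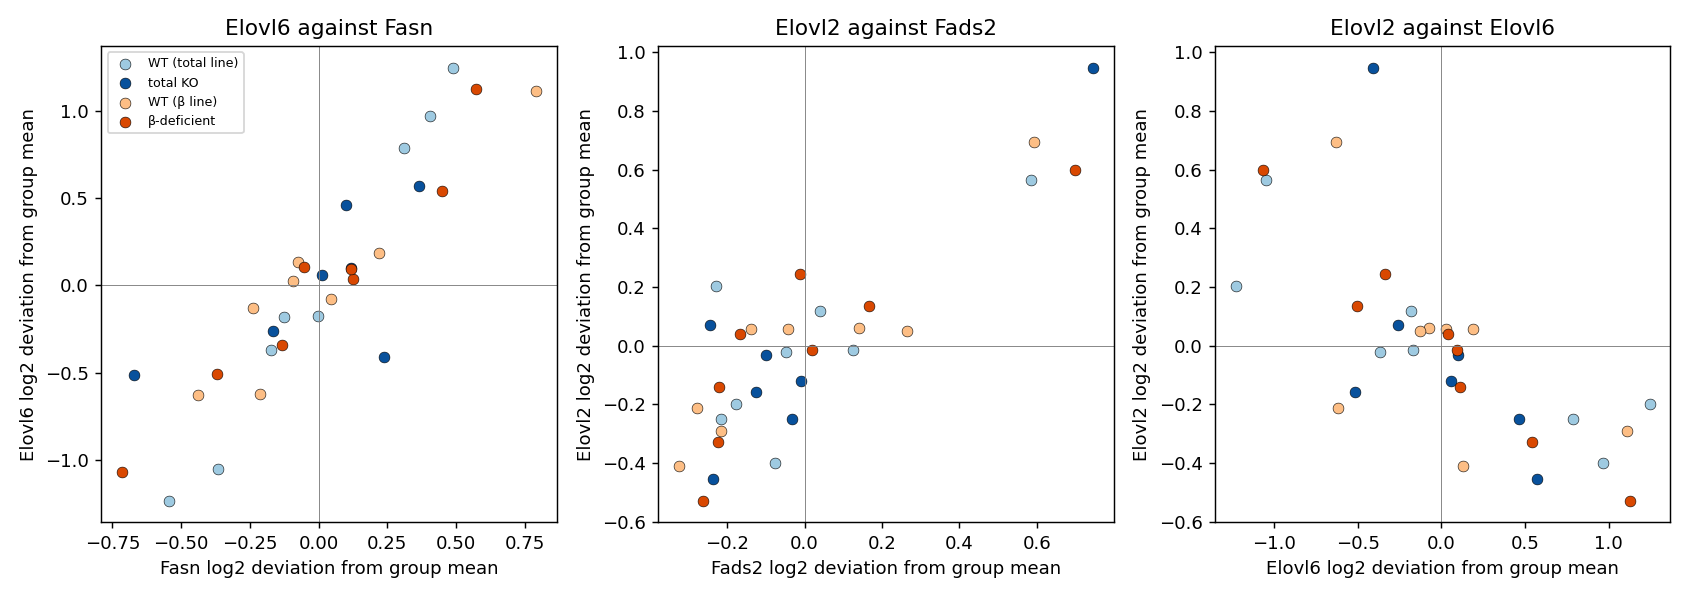
Each point is 1 liver, plotted as log2 deviation from the mean of its group for Elovl6 against Fasn, Elovl2 against Fads2 and Elovl2 against Elovl6. Points rise together in the first panel (r = 0.90), 4 livers stand apart at the upper right of the second, and points fall from left to right in the third (r = -0.71).

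The genes whose deviations were most like those of a member are given as descriptions over the 31 mice, with r as the measure and no test. For Elovl6 they were NAP092820-001 (0.99), an array entry without a gene symbol that the array places on another chromosome, Acaca (0.95) and 2310022B05Rik (0.92). The probe of NAP092820-001 shares at most 4 bases in a row with the Elovl6 probe and 7 with its reverse complement, and it differed by -3.68 in total ChREBP-KO livers (SE 0.35, adjusted p = 2.35e-09, limma). For Elovl5 they were Txnl1 (0.81), Acsl5 (0.79) and Ccdc69 (0.78), all lower in total ChREBP-KO livers by differences of -0.25, -0.88 and -1.40. For Elovl2 they were Gls2, Fads2 and Camk2n2 (0.88, 0.87 and 0.86), none of them called in total ChREBP-KO livers, and the Fads2 value, from a different Fads2 probe than above, includes the 4 mice that stood apart.

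For Elovl3 the nearest were Cit, AK078352 and Kpna6 (0.83, 0.82 and 0.82), which dropped to 0.70, 0.67 and 0.64 without the 2 mice farthest from the median. For Elovl7 they were Tubb2b (0.88), a tubulin, Ddr1 (0.87), a collagen receptor kinase, and an unnamed transcript (0.83). For Tecr they were Rragc (0.81), Wbp2 (0.79) and Ergic3 (0.79), for Hsd17b12 Pno1 (0.77), Zmynd19 (0.73) and Cnep1r1 (0.73), and for Elovl1 Tma7 (0.71), Cpn2 (0.70) and Smdt1 (0.70). Elovl1 had the lowest likeness to any other gene among the 8 members.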

How the data were processed

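The authors deposited scanner files of Agilent Feature Extraction 10.10.1.1, named with limma in the submitters' processing notes, with the intensity of each spot, and a table of log2 values that are filtered, quantile normalized medians of replicated probes. Here the background was not subtracted from the median intensities, a spot needed the authors' weight of 1 on at least 26 arrays or 6 arrays of 1 group, and log2 values were quantile normalized over the 31 arrays. This gave 36059 probes, of which 36057 are in the table of the authors. Both correlated at 0.999995, and the differences between them ran from -0.027 at the 1st to 0.030 at the 99th percentile. Positions are those of the array annotation (mm9).

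Tests ran in R 4.3.3 with limma 3.58.1 and data.table (version 1.17.8), as 1 linear model of the 4 groups with empirical Bayes moderation, without covariates, and Benjamini-Hochberg adjustment over all probes at 0.05. Code was tested on simulated data. Probes of a gene were tested separately. A gene given by a single value is represented by its brightest probe over all arrays. Summed levels are log2 of the summed signals of a list. Named genes are the members, Mlxipl, Elovl4, Fasn, Acaca, Scd1, Fads1, Fads2, Srebf1, up to 2 genes with the largest fall and 2 with the largest rise of each list among those called in total ChREBP-KO, called marker genes, and the 3 nearest genes of a member, and a few further genes were named after their values were seen. Members, lists and tests were chosen with earlier results of these data known, and the neighbours within 150 kilobases after their values were seen. Alternatives were other scalings, background correction, filters, slide and scan day blocks, a replicate block, variance priors, the exact Mann-Whitney test of the methods and leaving out each array. Replicate 3 of the total ChREBP-KO group was not analysed here. The arrays, 7 or 8 per group, limit the precision, and p-values measure the spread between these mice.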

Additional observations from a re-analysis of the deposited data

Results flagged for a closer look

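Within groups, the lowest or highest liver was tested for its gap to the nearest other liver (Dixon, 95% limit) over 48 sets of 1 probe in 1 group. In 7 sets the gap was past the limit, where chance gives about 1 in 20, or 2.4. Elovl2 was high in total ChREBP-KO replicate 7 (14.53, nearest 13.66) and in WT replicate 2 of the ChREBPβ line (15.09, nearest 14.46), both of which also had high Fads2. Elovl3 was low in WT replicate 2 of the total line (10.83, nearest 13.23). Elovl6 was high in WT replicate 5 of the ChREBPβ line (15.17, nearest 14.24). The second Elovl5 probe was high in total ChREBP-KO replicate 7 (6.58, nearest 5.99), and the third in ChREBPβ-deficient replicate 8 (6.54, nearest 5.59) and in WT replicate 5 of that line (7.22, nearest 5.52).

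The effects of the 2 deletions differed by the interaction test of limma for Elovl6 (-3.82), the brightest (-2.19) and second (-1.61) Elovl5 probes, Elovl3 (-1.61) and the second Hsd17b12 probe (-0.83).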

How the results depend on the processing

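Under 13 alternatives other than leaving out single arrays, 5 to 8 elongation probes were lower in total ChREBP-KO livers (7 in the analysis reported) and 0 were called in ChREBPβ-deficient livers. Elovl6 ran from -3.76 to -3.57 and the brightest Elovl5 probe from -1.98 to -1.86 over these alternatives. The single higher probe, Elovl7, became 0 with slide as a fixed block, with a replicate block, with the arrays of the line alone and with the exact Mann-Whitney test. The 2 probes called between WT groups became 1 when the authors' weight of 1 was required on all arrays, which keeps 10 of the 12 and drops the second Hsd17b12 probe, and 0 with slide as a fixed block. Mlxipl in the ChREBPβ line lost its call with slide as a fixed block (-0.52, adjusted p = 0.300), a replicate block (-0.45, adjusted p = 0.0746), the line alone (-0.45, adjusted p = 0.218) and the Mann-Whitney test (-0.45, adjusted p = 0.477). The cause was not tested for any of these.

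The brightest Elovl1 probe in the ChREBPβ line turned from 0.0048 to -0.0739 (processed) and -0.0571 (median signal) under scaling to a 75th percentile, -0.0264 in the deposited table, -0.0200 with slide and -0.00612 with scan day as a fixed block. The second Hsd17b12 probe in that line turned from 0.02 to -0.12 with slide as a fixed block.

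Leaving out each array in turn gave 6 to 8 lower and 0 to 2 higher probes in the total line, 8 lower palmitate supply genes throughout, 4 to 6 lower and 0 to 1 higher probes for the difference of the effects, 1 to 2 between WT groups, 11 to 19 unequal pairs in the total line and 0 to 1 in the ChREBPβ line. Mlxipl ran from -1.19 to -1.12 in the total line and from -0.49 to -0.42 in the ChREBPβ line, where the adjusted p reached 0.0674. Near 0 the sign changed in the ChREBPβ line for Elovl1 (-0.0151 to 0.0312 and -0.0459 to 0.0162), Elovl2 (-0.105 to 0.0798), the third Elovl5 probe (-0.30 to 0.13), Elovl6 (-0.0265 to 0.293), the second Hsd17b12 probe (-0.0136 to 0.0637) and Tecr (-0.00959 to 0.0733), and between WT groups for Elovl3 (-0.570 to 0.0603) and the third Elovl5 probe (-0.18 to 0.23).

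The replicate numbers were not taken to pair the mice, since not every pair correlated over 0.1. Deviations of mice with the same number correlated at -0.21 to 0.24 in the total line (over 0.1 in 2 of 7) and at -0.16 to 0.53 in the ChREBPβ line (over 0.1 in 6 of 8). With the replicate block the brightest Hsd17b12 probe was called in the total line (-0.20, adjusted p = 0.0303) and Elovl7 was not (0.75, adjusted p = 0.0674).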
